A study of Mus musculus with 248 samples.

Results

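A set of 32 genes of platelets and megakaryocytes was followed through a mouse leukemia time course: the granule chemokines Pf4 and Ppbp, 7 granule and matrix proteins (Vwf, Thbs1, F5, Mmrn1, Sparc, Clu, Selp), the 4 subunits of the glycoprotein Ib-IX-V complex (Gp1ba, Gp1bb, Gp9, Gp5), both chains of integrin alphaIIb beta3 (Itga2b, Itgb3), 3 other surface receptors (Gp6, Clec1b, Treml1), 4 nucleotide and protease receptors (P2rx1, P2ry1, P2ry12, F2rl2), 4 signalling and secretion genes (Rgs18, Gng11, Rab27b, Nrgn), 3 eicosanoid enzymes (Ptgs1, Tbxas1, Alox12) and 3 cytoskeletal genes (Tubb1, Myl9, Mylk). Members were chosen by symbol, as known genes of this lineage, with earlier results of these data known. They were matched to the Ensembl identifiers of the tables. All 32 were present among the 18508 genes of the training cohort and among the 13607 genes of the validation cohort.

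Blood libraries, whose tissue is labelled PBMC (peripheral blood mononuclear cells), came from C57BL/6 mice. The CM mice (genotype CHW) carried a conditional Cbfb-MYH11 knock-in allele and Mx1-Cre, a recombinase transgene that is induced by interferon. Littermate controls (Ctrl) lacked the allele, the recombinase or both (genotypes WT, CW and HW). Both arms received 7 doses of poly(I:C) at 14 mg/kg at 4 to 8 weeks of age, so that the controls also carry any effect of that treatment. Month 0 (T0) is the sample before treatment, T1 to T10 are months after it, and L marks leukemia, which the labels define by more than 20% cKit-positive blasts. Training libraries numbered 55 from 7 CM mice and 77 from 7 Ctrl mice. Validation libraries numbered 68 from 13 CM mice and 48 from 8 Ctrl mice. Each replicate in a group is a separate mouse.

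Platelets are cell fragments without a nucleus that megakaryocytes shed in the bone marrow, and they carry megakaryocyte RNA into the blood. They stick to injured vessel walls through the Ib-IX-V complex, which binds von Willebrand factor, and to each other through integrin alphaIIb beta3, which binds fibrinogen. Granule contents such as Pf4 and Ppbp are released on activation, and ADP and thromboxane A2 spread the activation to further platelets. Some of these genes, among them Itga2b, are also transcribed in blood stem and progenitor cells. In bulk blood RNA, fewer cells of a type and less RNA per cell cannot be told apart.

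Training libraries summed to between 16 and 36.3 M reads, and validation libraries to between 8.68 and 34.4 M reads. The row of the knock-in transcript (named MHY11 in the tables) was at 2.79 to 5.39 log2 CPM in 61 validation CM libraries, and at -6.30 to 0.05 in the 7 libraries of CM mouse 2700. Control mice of genotype HW had it at 2.61 to 3.82, so that the row marks the allele and not its activation; in the training cohort it was at -6.52 to -0.81 in CM libraries. CM mouse 2731 is labelled female, but its T0 library held the Y-linked Ddx3y at 5.21 and Xist at 1.24 log2 CPM. At T1, T2 and L its Ddx3y was at -2.35, -4.29 and -3.46 and its Xist at 6.34, 2.08 and -1.18, so that Xist was also low at L. The validation results at month 1, the validation counts by arm and the change to leukemia are therefore also given without the mouse or mice concerned. In the validation cohort, T0, T1 and L were unstranded and sequenced in different runs, and T2 to T6 were stranded.

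Starting sequences of genes that behaved differently in leukemia are shown so that their promoters can be compared: Pf4 and Gp6, which fell steeply, Itga2b, which fell less, and Gp1ba and P2ry1, which rose. RefSeq promoter entries (GRCm38.p6) matched 25 of the 32 members by symbol; Thbs1, Rab27b, Gng11, Rgs18, Itgb3, Vwf and Clu had no entry. The 250 bases before the annotated start are printed 5′ to 3′ on the strand of the gene, and capitals mark matches to motifs of 3 transcription factor families on either strand. AGATAA is the motif searched for GATA factors. For ETS factors the letters were AGGAAG. For RUNX factors, the family whose partner subunit is part of the fusion protein, they were TGTGGT.
Pf4 promoter, chr5:90772185-90772434, plus strand: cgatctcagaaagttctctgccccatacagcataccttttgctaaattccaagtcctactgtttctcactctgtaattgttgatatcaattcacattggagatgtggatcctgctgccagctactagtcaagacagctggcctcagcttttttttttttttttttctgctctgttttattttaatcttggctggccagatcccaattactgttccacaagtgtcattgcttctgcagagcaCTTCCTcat
Gp6 promoter, chr7:4397745-4397994, minus strand: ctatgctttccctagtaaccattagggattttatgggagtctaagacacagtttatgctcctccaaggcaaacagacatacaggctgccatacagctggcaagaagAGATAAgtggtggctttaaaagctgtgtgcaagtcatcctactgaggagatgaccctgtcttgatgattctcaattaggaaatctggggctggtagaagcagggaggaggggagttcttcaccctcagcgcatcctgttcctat
Itga2b promoter, chr11:102469884-102470133, minus strand: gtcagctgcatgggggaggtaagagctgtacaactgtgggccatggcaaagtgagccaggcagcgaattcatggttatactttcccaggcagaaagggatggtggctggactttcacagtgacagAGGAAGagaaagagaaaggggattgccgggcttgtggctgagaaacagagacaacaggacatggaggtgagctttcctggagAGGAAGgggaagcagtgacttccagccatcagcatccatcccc
Gp1ba promoter, chr11:70638872-70639121, plus strand: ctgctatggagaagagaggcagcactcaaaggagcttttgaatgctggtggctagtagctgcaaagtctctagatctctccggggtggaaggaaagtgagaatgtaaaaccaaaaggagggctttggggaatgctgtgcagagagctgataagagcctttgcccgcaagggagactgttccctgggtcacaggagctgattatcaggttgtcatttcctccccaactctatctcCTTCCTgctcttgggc
P2ry1 promoter, chr3:61002535-61002784, plus strand: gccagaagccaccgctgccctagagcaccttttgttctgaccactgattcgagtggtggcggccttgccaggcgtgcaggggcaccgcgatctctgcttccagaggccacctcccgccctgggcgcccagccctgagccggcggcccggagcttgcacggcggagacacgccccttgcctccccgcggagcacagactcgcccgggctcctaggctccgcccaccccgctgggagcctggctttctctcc
The GATA letters or their complement TTATCT were in 4 of the 25 member windows (16%) and in 9.99% of all 32851 windows of this length. The ETS letters or CTTCCT were in 12 members (48%) against 29.5% of all windows. The RUNX letters or ACCACA were in 2 members (8%) against 14.0% of all. Itga2b had 2 ETS matches, Pf4 and Gp1ba had 1 each, Gp6 had 1 GATA match, and the P2ry1 window held none of the 3 motifs. These matches describe letters only. No match of one motif overlapped a match of another in the printed windows.

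Before treatment, platelet transcripts were a small share of the blood RNA and spanned a wide range. In the 7 training Ctrl libraries at T0, all 32 members together took 0.333 to 1.07% of the reads (median 0.473%). Per kilobase of exon, Ppbp, a chemokine precursor of platelet granules, had the highest median level, 399 RPKM (recovered reads scaled to the library total and divided by exon length). Nrgn, a calmodulin-binding protein, followed at 202 RPKM, Pf4 at 199, Tubb1, the platelet-specific beta tubulin, at 178 and Gng11, a G protein gamma subunit, at 154. The lowest were Rab27b, a small GTPase of dense granule secretion, at 2.33 RPKM and Sparc, a matrix glycoprotein, at 0.0652 RPKM. Sparc had only 0 to 42 reads per library in this group, so that its differences carry little information.

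**Figure D1:**
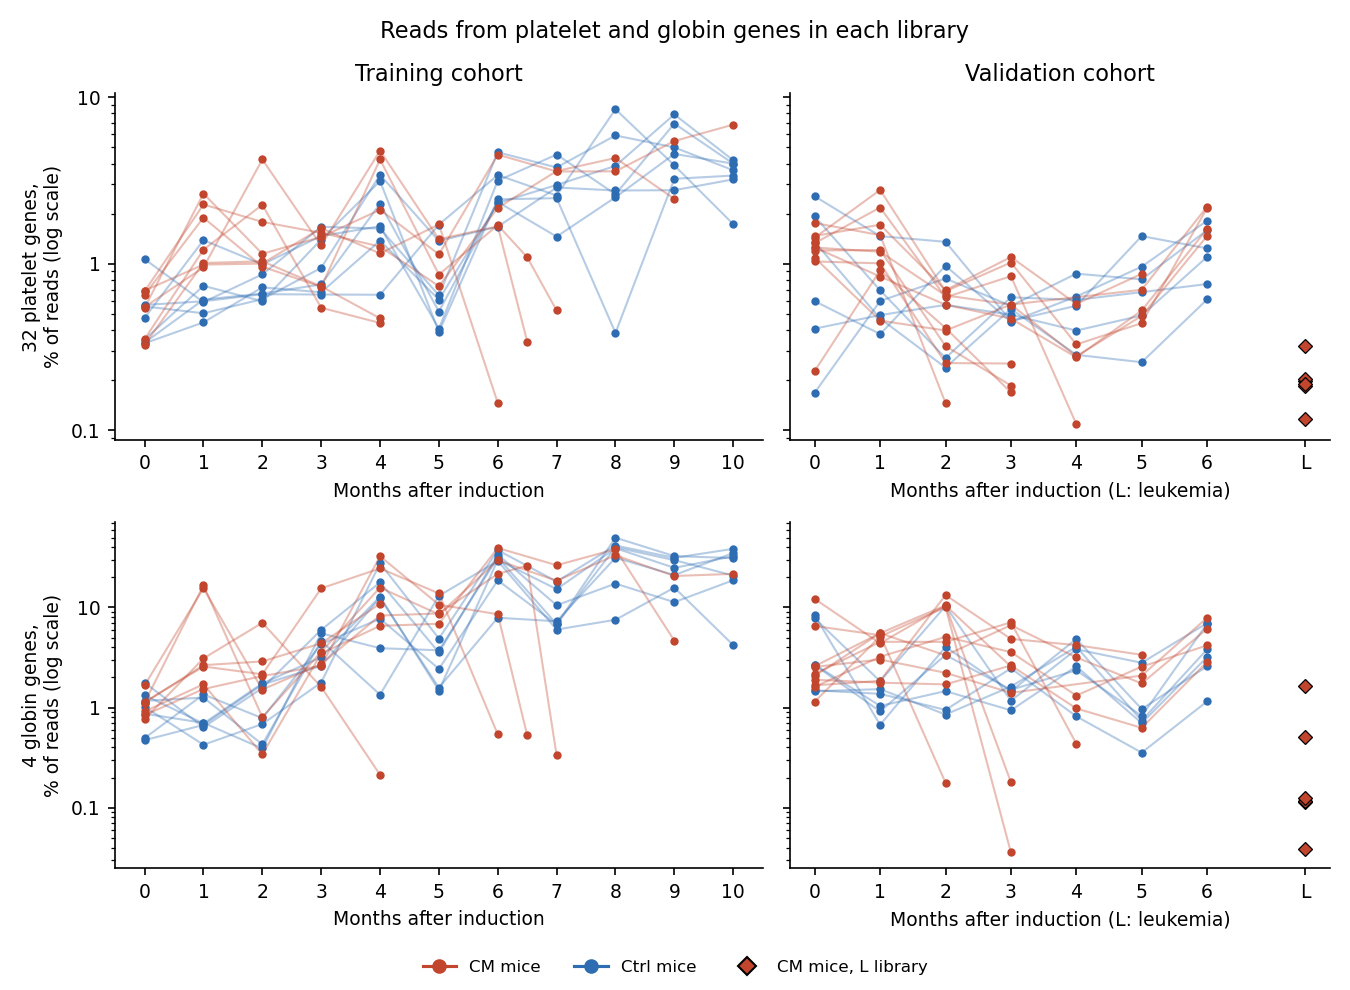
Share of reads from the 32 members (upper row) and from globin genes (lower row) in each library, on log axes in percent, by months after induction. Each line is a mouse, and diamonds mark leukemia libraries. The member share of training controls lay between 0.333 and 1.07% at month 0 and between 1.73 and 4.19% at month 10, and the 6 leukemia libraries lay between 0.116 and 0.320%.

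One month after induction, platelet genes were higher in CM than in control blood. In the training cohort, 20 of 32 members were higher and 0 lower at an adjusted p under 0.05 (limma over all genes), where 3.68% of all genes were called higher. The median member difference was 1.08 on the log2 scale, against -0.18 over all genes, and all 32 estimates were positive. The members together took 0.951 to 2.64% of the reads in CM mice (median 1.22%) and 0.445 to 1.39% in controls (median 0.596%). The called members were both chemokines, both integrin chains, 3 of 4 Ib-IX-V subunits, 3 of 3 eicosanoid enzymes, 4 of 7 granule and matrix proteins, 2 of 3 other receptors, 2 of 4 nucleotide and protease receptors and 2 of 3 cytoskeletal genes. None of the 4 signalling and secretion genes passed.

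Thbs1, the adhesive granule protein thrombospondin, had the largest difference. Its level at T1 was 11.19, 11.79 and 12.98 log2 CPM (lowest, median, highest) in CM mice and 9.50, 10.24 and 11.42 in controls. The means were 11.97 ± 0.67 and 10.19 ± 0.65 (SD, n = 7 each), and the difference was 1.93 ± 0.32 on the log2 scale (SE, adjusted p = 0.00312). All CM libraries lay above the control mean, and the groups overlapped. Pf4, also called platelet factor 4, was at 7.38, 7.93 and 9.06 log2 CPM in CM mice and 6.65, 7.09 and 8.11 in controls, a difference of 1.13 ± 0.29 (adjusted p = 0.0358). Ppbp ran from 9.47 to 11.07 in CM mice and from 8.63 to 10.44 in controls, and differed by 1.06 ± 0.28 (adjusted p = 0.0424). Both chemokines were thus about as far apart between the arms as the median member.

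Among the adhesion receptors, Itga2b, the alphaIIb chain, was at 9.50 to 10.98 log2 CPM in CM mice and 8.48 to 9.87 in controls, a difference of 1.27 ± 0.27 (adjusted p = 0.0156). Gp1bb, the beta chain of glycoprotein Ib, differed by 1.70 ± 0.39 (adjusted p = 0.0216), with 5.83 to 7.92 against 4.74 to 6.80. Reads of Gp1bb and of the overlapping gene Septin5 could be shared, since the strand setting of the counting is not given in the sources used here. Gp9, which is needed to bring the Ib complex to the surface, ran from 7.17 to 8.75 in CM mice and from 6.10 to 7.87 in controls, and differed by 1.30 ± 0.31 (adjusted p = 0.0248). Gp6, the collagen receptor, was at 5.54 to 6.72 against 4.71 to 6.15, with a difference of 0.91 ± 0.24 (adjusted p = 0.0398). In each of these receptors every CM library exceeded the control mean while the ranges overlapped, the highest control library reaching into the CM range.

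Of the granule proteins, Vwf, which tethers platelets to the vessel wall, was at 9.58 to 11.05 log2 CPM in CM mice and 8.69 to 10.26 in controls (difference 1.25 ± 0.31, adjusted p = 0.0294). Clu, the chaperone clusterin, was at 8.35 to 9.67 against 7.36 to 8.89 (1.19 ± 0.27, adjusted p = 0.0217). Tubb1 was at 8.79 to 10.20 against 8.02 to 9.50 (1.05 ± 0.26, adjusted p = 0.0281). The arms overlapped in all 3. Several platelet transcripts did not pass. Myl9, a myosin light chain, gave 0.43 ± 0.28 (adjusted p = 0.349; 6.98 to 8.89 in CM mice, 7.12 to 8.65 in controls). P2ry12, the ADP receptor blocked by clopidogrel, gave 0.62 ± 0.26 (adjusted p = 0.178; 5.93 to 7.37 against 5.41 to 7.04), and its locus overlaps Med12l. Gng11 had the smallest estimate, 0.11 ± 0.20 (adjusted p = 0.735; 6.62 to 7.99 against 6.73 to 8.18), and only 3 of 7 CM libraries lay above the control mean.

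The validation cohort gave the same count at month 1, 20 higher and 0 lower of 32, where 7.95% of all genes were called higher. The median difference of the members was 0.88 on the log2 scale, against -0.09 over all genes. The median member share in the validation cohort was 1.25% at month 0 and 1.20% at month 1 in CM mice. In its controls it was 0.976% and 0.545%, and the months were different sequencing runs. In the training cohort it was 0.550% and 1.22% in CM mice and 0.473% and 0.596% in controls. Of the 20 called members of each cohort, 18 were shared (90% of each list); Alox12 and F2rl2 were called in the training cohort alone, and P2ry1 and Rgs18 in the validation cohort alone. Whether the cohorts differ in these genes was not tested. Across the 32 genes, which are not independent, the estimates of both cohorts had a Pearson correlation of 0.763 and a Spearman correlation of 0.826. The cohorts hold different mice.

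Thbs1 again had the largest difference, 1.44 ± 0.37 (adjusted p = 0.0131), with 9.62, 11.23 and 12.64 log2 CPM (lowest, median, highest) in 10 CM mice and 8.95, 9.75 and 11.43 in 6 controls. Pf4 was at 7.47, 8.78 and 9.81 in CM mice and 6.88, 7.60 and 8.95 in controls. Its means were 8.76 ± 0.72 and 7.75 ± 0.68 (SD), a difference of 1.01 ± 0.27 (adjusted p = 0.015). In both genes 9 of 10 CM mice lay above the control mean. Itga2b differed by 1.20 ± 0.29 (adjusted p = 0.0104; 8.90 to 11.30 against 8.31 to 10.15). Tbxas1, thromboxane synthase, had the lowest adjusted p of the members, with 1.30 ± 0.27 (adjusted p = 0.00609; 4.90 to 6.93 against 4.51 to 5.83); 7 genes overlap its locus. Gp1ba, the chain of the Ib complex that binds von Willebrand factor, had the smallest estimate, 0.07 ± 0.20 (adjusted p = 0.816), with 3.75 to 5.46 in CM mice and 4.02 to 5.43 in controls. Its training estimate at month 1 was 1.09 ± 0.30 (adjusted p = 0.0518), and the difference between the cohorts was not tested.

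Without mice 2700 and 2731, 12 of 32 members were higher and 0 lower at validation month 1, with a median of 0.83. The estimates were then 1.43 ± 0.39 for Thbs1 (adjusted p = 0.0183), 0.93 ± 0.28 for Pf4 (adjusted p = 0.0286), 1.12 ± 0.31 for Itga2b (adjusted p = 0.0183), 1.31 ± 0.28 for Tbxas1 (adjusted p = 0.00676) and -0.02 ± 0.21 for Gp1ba (adjusted p = 0.966). Ppbp (0.79), Gp6 (0.76) and Vwf (0.84) were among the 8 that no longer passed. The share of all genes called without these mice is not given here, and with all mice 7.95% were called higher.

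**Figure D2:**
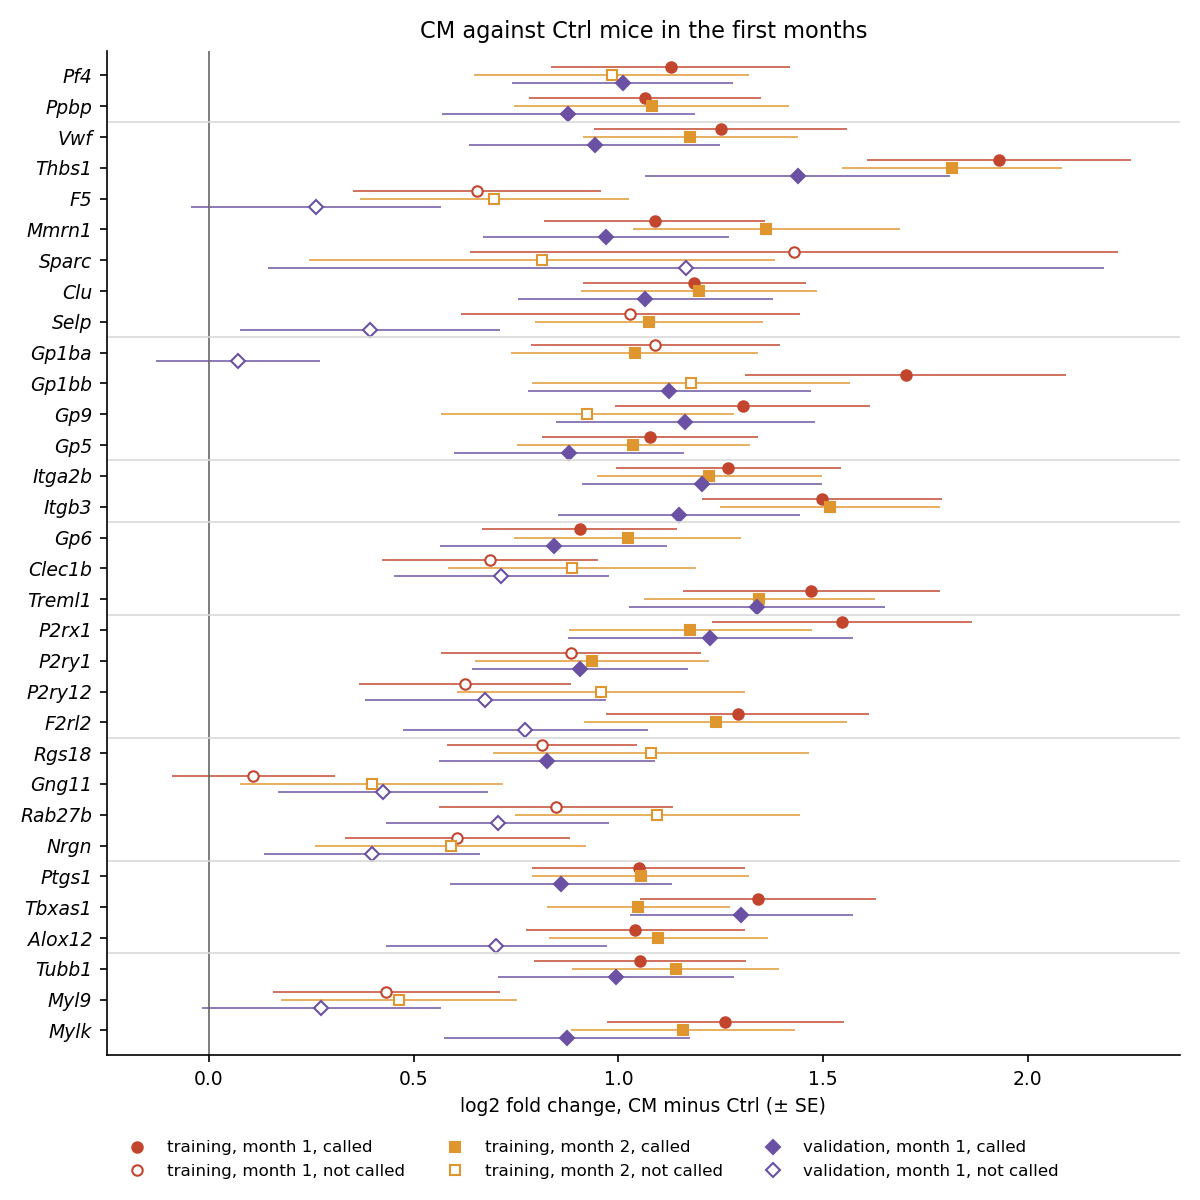
CM minus Ctrl for each of the 32 members, on the log2 scale with standard errors, at training months 1 and 2 and validation month 1. Filled symbols are called at an adjusted p under 0.05; Thbs1 has the largest value in each of the 3 comparisons (1.93, 1.82 and 1.44).

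At training month 2, 20 of 32 members were higher and 0 lower in CM mice, where 5.46% of all genes were called higher. The median of the members was 1.08, against -0.09 over all genes. The arms did not overlap in 7 members: Thbs1, Itga2b, Itgb3, Vwf, Mmrn1, Tbxas1 and Mylk. All 7 were higher in CM mice, as were 2.13% of all genes without overlap, and 0 members were lower without overlap, against 3.3% of all genes. Thbs1 was at 11.23, 11.56 and 13.34 log2 CPM in CM mice and 9.94, 10.26 and 10.85 in controls, a difference of 1.82 ± 0.27 (adjusted p = 0.00121). Itgb3, the beta3 chain, had means of 10.56 ± 0.76 and 9.18 ± 0.22 (SD, n = 7 each) and differed by 1.52 ± 0.27 (adjusted p = 0.00318). Pf4 gave 0.98 ± 0.33 (adjusted p = 0.0713; 7.47 to 9.83 against 6.96 to 7.96), and its ranges overlapped. Gng11 again had the smallest estimate, 0.40 ± 0.32 (adjusted p = 0.46).

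The month 1 and month 2 counts changed with a code in the training titles, G1 to G7, and with single mice. The labels do not explain the code, so that what it groups is not known. With the code as a term in the training fits, 0 of 32 members were called at month 1 and 0 at month 2. The share of all genes called in these fits is not given here. Each code that held both arms had only 1 or 2 CM and 1 to 3 control libraries. A loss of power and an effect of the code therefore cannot be told apart. The median log2 CPM over the members was taken in each library and averaged by arm. CM minus Ctrl within the codes that held both arms at month 1 was 1.62 in G3 (1 against 1 library), 1.25 in G5 (2 against 3) and -0.19 in G6 (1 against 2), and at month 2 it was 1.96 in G3 (1 against 1) and 1.13 in G7 (2 against 2). The month 1 training count fell to 10, 7 or 4 without Ctrl mouse 3340, 3349 or 3350, and to 6 without CM mouse 3368 and also without 3370. At month 2 it was 13 without CM mouse 3334. The month 1 validation count was 6, 8 or 7 without Ctrl mouse 2683, 2689 or 2720. Under median-ratio scaling the month 1 training count was 9.

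Red cell genes were higher along with the platelet genes at month 1. All 11 erythroid genes were higher at month 1 in both cohorts, and globin reads were 1.53 to 16.6% of the library in training CM mice against 0.426 to 1.35% in controls. In the validation cohort they were 1.78 to 5.54% against 0.673 to 1.83%. At validation month 2 the median globin share was 4.82% in CM mice and 2.41% in controls, while the median member share was 0.490% and 0.692%. The 11 erythroid genes together, 2 alpha globin genes among them, took 0.474 to 4.53% against 0.125 to 0.390% of the reads in the training cohort, and none of them was at 0 in all libraries of an arm. Their part in the result was not tested. Of a further 31 platelet genes, 8 were higher and 1 lower at month 1 in the training cohort, and 12 were higher and 1 lower in the validation cohort. Of 14 regulators of megakaryocyte development, 5 were higher and 0 lower in the training cohort, and 5 higher and 1 lower in the validation cohort. Genes of other cells also moved at month 1. In the training cohort, 4 of 6 endothelial, 4 of 7 stem and progenitor and 3 of 7 basophil and mast cell genes were higher and 0 of each lower, with medians of 1.56, 1.90 and 1.16; at month 2 it was 4, 4 and 2. In the validation cohort at month 1, 4 of 5, 4 of 6 and 5 of 6 were higher and 0 lower. The summed levels in training CM and control mice at month 1 were 0.00198 to 0.00480% and 0.00104 to 0.00240% of the reads for the endothelial list, 0.00215 to 0.00699% and 0.00139 to 0.00485% for the stem and progenitor list, and 0.0101 to 0.0291% and 0.00781 to 0.0866% for the basophil and mast cell list. The arms overlapped in each, and no gene of these lists was at 0 in all libraries of an arm. Of 8 stroma and smooth muscle genes, 0 were called in the training cohort at month 1. Together they took at most 0.00209% of the reads of any training library at that month. At validation month 1 the 4 genes of this list took 0.000682 to 0.0537% in CM mice and 0.000823 to 0.0404% in controls. The part of these cells in the result was not tested.

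The change of each mouse from its own month 0 was also compared, since levels differed between mice. In training controls, 0 of 32 members were called between month 0 and month 1 (0% of all genes called; 0 members with an unadjusted p below 0.05 and 0 called by voom), with a median change of 0.40. In validation controls, 0 of 32 were called (33.3% of all genes called; 1 with an unadjusted p below 0.05, 0 by voom), with a median change of -0.38. Months 0 and 1 of the validation cohort are different sequencing runs, so that time and run cannot be told apart there. Without Ctrl mouse 2692, whose T0 library had 8.34% globin reads, 13 of 32 members were called. Their directions and the share of all genes in that fit are not given here, and with all mice that share was already 33.3%. The CM change minus the Ctrl change had a median of 1.0 in the training cohort, with 0 members called (1.2% of all genes called; 20 with an unadjusted p below 0.05, 1 by voom). It was 0.56 in the validation cohort, with 0 called (12.5% of all genes called; 1 with an unadjusted p below 0.05, 0 by voom), and 0.74 with 0 called without mice 2700 and 2731. These training counts were 3, 1 or 4 without mouse 3334, 3341 or 3342, and the validation count was 2 without mouse 2692.

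Before treatment and after month 2, no member passed the test between the arms, and voom called 0 in each of these comparisons. At month 0, 0 of 32 were called in the training cohort (0.0054% of all genes) and 0 in the validation cohort (0% of all genes), with 0 at an unadjusted p under 0.05 in both; the median differences were 0.06 and 0.36. In the training cohort, 0 were called at month 3 (0.632% of all genes), month 4 (0.0054%), month 5 (0%) and month 6 (0.0162%). The medians were 0.12, -0.33, 0.53 and -0.93, and 5, 0, 1 and 10 members had an unadjusted p under 0.05. In the validation cohort, 0 were called at month 2 (0.147% of all genes), month 3 (0%), month 4 (0%), month 5 (0%) and month 6 (0%). The medians were -0.49, -0.46, -0.89, -0.22 and 0.66, and 1, 4, 4, 0 and 17 members had an unadjusted p under 0.05. Without mice 2700 and 2731 the validation counts at months 0 and 2 to 6 were also 0, with medians of 0.12, -0.39, -0.49, -0.69, -0.12 and 0.75. The later months rest on 4 to 9 CM mice in the validation cohort and on 5 CM mice at training months 5 and 6. Single validation CM mice lay far below their own month 0. The median member change was -4.41 (mouse 2731, month 2), -4.60 (2719, month 3) and -4.24 (2684, month 4). At leukemia it was -4.69, -4.41 and -4.69 in these mice. The other CM mice changed by -2.04 to 0.87, -2.18 to -0.53 and -2.21 to -1.42 at these months. These months were different runs from month 0. The month 0 library of mouse 2731 did not match its labelled sex, so that its change from month 0 is uncertain. The median over the members in mouse 2731 was 7.78 log2 CPM at month 1, 4.10 at month 2 and 3.99 at leukemia.

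Pf4 at validation month 2 had means of 7.18 ± 1.23 in 10 CM mice and 8.04 ± 1.02 in 6 controls (SD), a difference of -0.86 ± 0.52 (adjusted p = 0.538). The share of all members among validation CM libraries was 0.146 to 0.694% at month 2 and 1.47 to 2.21% at month 6, and among controls 0.238 to 1.36% and 0.611 to 1.82%. CM and control libraries overlapped at both months. The 4 CM mice with a month 6 library were other mice than the 6 with a leukemia library.

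In the control mice of the training cohort platelet transcripts rose over the study. Between month 0 and month 10 of the training cohort, 31 of 32 members rose and 0 fell, where 10.5% of all genes were called higher, and 30 of the 32 lay higher without overlap between the months, as did 5.37% of all genes, and 0 lay lower without overlap, against 38.9% of all genes. The median change was 2.82, against -1.81 over all genes. The member share was 0.333 to 1.07% at month 0 and 1.73 to 4.19% at month 10, with intermediate months out of order: medians of 1.68% at month 4, 0.609% at month 5, 2.44% at month 6 and 4.57% at month 9. Validation controls had no such common direction up to month 6, their last month: the median member change from the own month 0 was 1.59, 3.14 and 1.33 in mice 2689, 2692 and 2720 and -1.12, -1.40 and -1.09 in mice 2683, 2702 and 2705. Those months were sequenced in different runs, and no test of this change was made.

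Pf4 in control mice 3335, 3339, 3340, 3342, 3346, 3349 and 3350 was at 7.11, 6.29, 8.26, 6.86, 6.54, 6.10 and 7.00 log2 CPM at month 0. At month 10 it was at 9.04, 10.62, 10.33, 10.49, 10.14, 10.51 and 10.22. Every mouse rose, no month 10 value reached down to month 0, and mouse 3335 had the lowest value at month 10. The change was 3.31 ± 0.34, a 9.94-fold rise (SE, adjusted p = 0.000448). Gng11 rose most, by 3.40 ± 0.35 (10.6-fold, adjusted p = 0.000448), from 6.49 to 8.19 at month 0 to 8.92 to 11.07 at month 10. Ppbp rose by 2.98 ± 0.35, Itga2b by 2.73 ± 0.30 and Vwf by 2.46 ± 0.27, each in 7 of 7 mice. The smallest called rises were those of P2ry1, an ADP receptor, by 1.94 ± 0.27 (adjusted p = 0.000922) and Tbxas1 by 1.90 ± 0.26 (adjusted p = 0.000939). Sparc, with 0 to 42 reads, gave 1.02 ± 1.16 (adjusted p = 0.426).

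Globin reads moved with this rise, from 0.473 to 1.78% of the library at month 0 to 4.21 to 38.5% at month 10, and 11 of 11 erythroid genes rose. The summed erythroid list was at 0.109 to 0.476% and 0.952 to 7.97%, with no gene at 0 in all libraries of a month. All 6 leukocyte check genes fell, and their sum went from 0.433 to 0.660% to 0.105 to 0.237%. With globin reads left out of the library total, the median rise of the members was 3.25, and under median-ratio scaling it was 4.52 (all genes -0.17), with 31 called in both. The share of all genes called in these fits is not given here, and in the main fit 10.5% were called higher. The part of the blood composition in the result was not tested. Of the further platelet genes, 21 of 31 rose and 6 fell; of the megakaryocyte regulators, 6 of 14 rose and 4 fell.

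In the last libraries of CM mice, most platelet genes were not raised as they were in controls at month 10, and a small group was. The last library of each training CM mouse, taken at month 4 to 10, was compared with its own month 0: 6 of 32 members rose and 0 fell, where 10.1% of all genes were called higher. The median of the members was 0.48, against -0.57 over all genes. The 6 were 3 of the 4 Ib-IX-V subunits (Gp1ba, Gp1bb and Gp5), the nucleotide receptors P2ry1 and P2rx1, and Rab27b. Earlier libraries of most of these mice lay higher than the last. The median member change peaked at 3.37 (mouse 3334, month 4), 2.68 (3336, month 4) and 2.58 (3338, month 2). In mice 3341, 3357 and 3370 it peaked at 1.15 (month 5), 1.58 (month 2) and 2.50 (month 8). Their last libraries, in this order, had -0.49, -0.27, 0.46, -2.36, 0.39 and 1.80. Mouse 3368 ended at its highest, 3.69.

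P2ry1 rose in all 7 mice. In mice 3334, 3336, 3338, 3341, 3357, 3368 and 3370 it was at 4.72, 3.64, 3.69, 4.20, 3.43, 3.69 and 3.85 log2 CPM at month 0 and at 5.87, 6.89, 6.43, 6.70, 4.96, 6.53 and 6.21 in the last library. The lowest last value lay above the highest month 0 value, and the change was 2.34 ± 0.30 (5.06-fold, adjusted p = 0.000155). Gp1ba rose by 2.07 ± 0.34 (adjusted p = 0.000622), also without overlap, and Rab27b by 1.93 ± 0.37 (adjusted p = 0.00145) in 7 of 7 mice. P2ry1 and Gp1ba were the 2 members without overlap, and the share of all genes without overlap in this comparison is not given here. Gp5, a further subunit of the Ib complex, rose by 1.65 ± 0.34 (adjusted p = 0.00224) and Gp1bb by 1.65 ± 0.45 (adjusted p = 0.0112). P2rx1, an ATP-gated channel, rose by 1.42 ± 0.46 (adjusted p = 0.0258).

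Pf4 went in different directions in these mice. It was at 6.70, 7.25, 6.23, 7.23, 6.09, 7.04 and 7.32 log2 CPM at month 0 and at 6.50, 6.97, 7.22, 4.34, 6.88, 10.79 and 9.31 in the last library, in the same order of mice. Mice 3368 and 3370, sampled last at months 10 and 9, ended high, mouse 3341 ended low, and the others stayed within about 1 log2 unit of their start. The change was 0.59 ± 0.60 (adjusted p = 0.447). Gng11 had the lowest estimate of the members, -1.16 ± 0.80 (adjusted p = 0.258). The member share of the last library was 6.85% in mouse 3368, 2.45% in mouse 3370 and 0.146 to 0.525% in the other 5 mice.

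Genes of other cells moved in the same libraries. The 7 basophil and mast cell genes took 0.00491 to 0.0652% of the reads at month 0 (median 0.00767%) and 0.00703 to 0.788% in the last library (median 0.314%), and 5 of 7 rose. The 7 stem and progenitor genes took 0.00177 to 0.00430% (median 0.00210%) and then 0.00143 to 0.0808% (median 0.0353%), with 4 risen and 1 fallen. The megakaryocyte regulators went from 0.110 to 0.128% to 0.180 to 0.376%, without overlap. The 6 endothelial genes took 0.00164 to 0.00272% and then 0.000984 to 0.0143%, with 3 risen and 2 fallen, and the erythroid genes 0.181 to 0.443% and then 0.181 to 4.88%. All 6 leukocyte check genes fell. No gene of the basophil and mast cell, stem and progenitor, endothelial, erythroid or regulator lists was at 0 in all libraries of either time. The part of these cells in the member changes was not tested.

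The difference between the arms in this late change was tested on the changes of the single mice, and it shares the libraries of both comparisons just given. Of 32 members, 18 changed less in CM mice than in controls and 0 changed more, where 4.92% of all genes were called lower. The median of the members was -2.04, against 0.95 over all genes. Gng11 had the largest difference: its mean change was -1.16 ± 2.81 in CM mice and 3.40 ± 1.02 in controls (SD, n = 7 each), a difference of -4.18 ± 0.94 (adjusted p = 0.00643). P2ry12 gave -3.83 ± 0.93 (adjusted p = 0.00814), Nrgn -3.62 ± 0.80 (adjusted p = 0.00619) and Clec1b, the receptor of podoplanin, -2.87 ± 0.80 (adjusted p = 0.0131). Pf4 gave -2.47 ± 0.75 (adjusted p = 0.0175), with mean changes of 0.59 ± 2.07 and 3.31 ± 0.99. For these genes 6 of 7 CM mice changed less than the control mean and the arms overlapped.

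The members that did not pass included P2ry1, with 0.28 ± 0.44 (adjusted p = 0.648), the only positive estimate of the 32, Rab27b with -0.85 ± 0.52 (adjusted p = 0.207) and Gp1ba with -0.86 ± 0.51 (adjusted p = 0.19). Sampling months differed between the arms here, since controls were all taken at month 10. With control month 6 in place of month 10, 17 members were lower, and the share of all genes in that fit is not given here. The count fell to 3 without CM mouse 3334, to 3 without Ctrl mouse 3349 and to 5 without Ctrl mouse 3350, and rose to 29 without CM mouse 3368, which ended high.

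**Figure D3:**
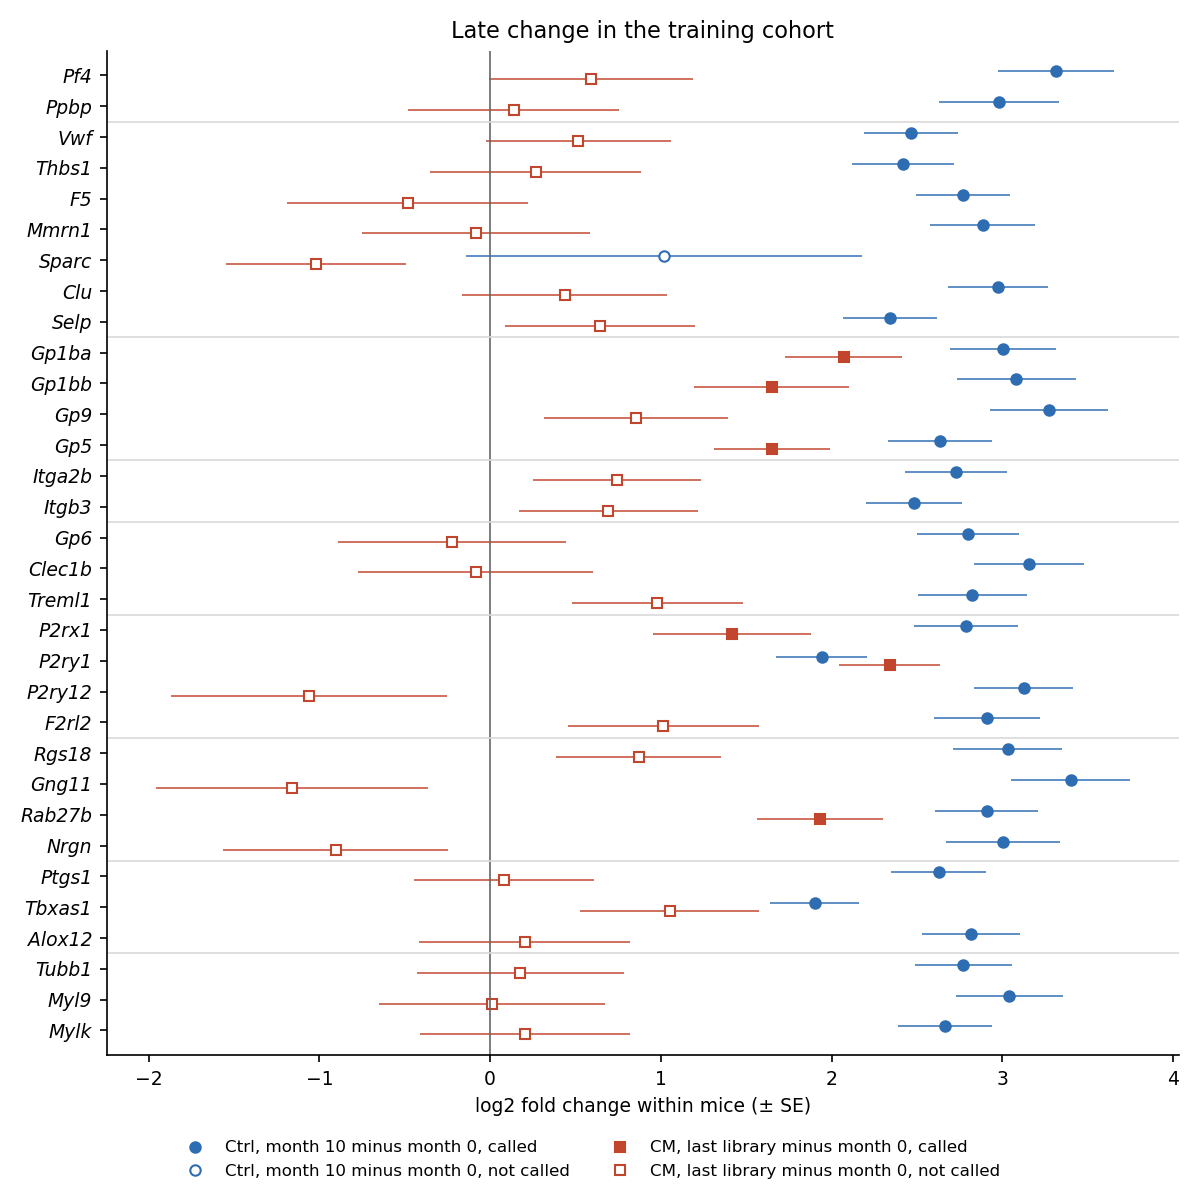
Change of each member from month 0 to the last CM library and to control month 10 in the training cohort, on the log2 scale with standard errors. Filled symbols are called at an adjusted p under 0.05. All called control changes lie between 1.90 (Tbxas1) and 3.40 (Gng11), and P2ry1 is the member with the largest CM change, 2.34.

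In leukemia, most platelet genes fell and a few rose. In 6 validation CM mice with a leukemia and a month 0 library, 23 of 32 members fell, where 33% of all genes were called lower, and 3 rose, where 31.4% were called higher. The median of the members was -3.90, against -0.04 over all genes, and 20 of 32 members did not overlap. Of these 18 were lower at leukemia, as were 20.9% of all genes without overlap, and 2 were higher, as were 22.9%. The member share was 0.227 to 1.76% at month 0 and 0.116 to 0.320% at leukemia. Leukemia libraries were sequenced in one run and month 0 libraries in another, so that run and leukemia cannot be told apart.

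Gng11 fell most. In mice 2684, 2690, 2708, 2718, 2719 and 2731 it was at 9.42, 6.76, 8.61, 9.45, 9.16 and 9.87 log2 CPM at month 0 and at 1.41, 0.33, 1.96, 2.07, 1.17 and 2.04 at leukemia. Every leukemia value lay far below every month 0 value, and the change was -7.38 ± 0.24 (SE, adjusted p = 3.96e-07). Pf4 was at 9.31, 6.81, 8.66, 9.38, 9.15 and 9.58 at month 0 and at 3.06, 3.07, 4.55, 5.49, 3.87 and 4.66 at leukemia, a change of -4.70 ± 0.32 (adjusted p = 9.65e-06). The Pf4 groups did not overlap, although mouse 2690 started lower than the others, with 12.2% globin reads at month 0. Ppbp changed by -4.47 ± 0.33 (adjusted p = 1.43e-05).

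The granule and matrix proteins fell with the exception of Sparc (-0.71 ± 0.56, adjusted p = 0.294). Thbs1 changed by -4.15 ± 0.33 (adjusted p = 2.14e-05), Vwf by -3.95 ± 0.36 (adjusted p = 4.34e-05) and Clu by -4.40 ± 0.25 (adjusted p = 4.27e-06). Among the other receptors, Gp6 changed by -5.32 ± 0.37 (adjusted p = 1.08e-05) and ended between -0.18 and 2.28 log2 CPM. P2ry12 changed by -4.20 ± 0.44 (adjusted p = 8.05e-05). The cytoskeletal genes fell throughout: Myl9 by -5.55 ± 0.39 (adjusted p = 1.19e-05), Tubb1 by -4.69 ± 0.41 (adjusted p = 3.29e-05) and Mylk, the kinase of myosin light chain, by -4.16 ± 0.40 (adjusted p = 5.62e-05). Nrgn changed by -6.15 ± 0.28 (adjusted p = 1.62e-06).

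The subunits of the Ib-IX-V complex did not move together. Gp9 changed by -4.96 ± 0.34 (adjusted p = 1.04e-05), with no overlap. Gp1bb gave -1.44 ± 0.57 (adjusted p = 0.0517) and Gp5 gave 0.09 ± 0.48 (adjusted p = 0.874). Gp1ba rose: it was at 4.90, 2.59, 4.47, 4.91, 4.58 and 4.36 log2 CPM at month 0 and at 6.22, 4.98, 4.96, 5.53, 4.96 and 4.72 at leukemia, in the order of mice given above. All 6 mice rose while the ranges overlapped, and the change was 0.92 ± 0.27 (adjusted p = 0.0171). Without mouse 2690, which had the lowest start, it was 0.63. The integrin chains also differed in size, Itgb3 with -2.79 ± 0.37 (adjusted p = 0.000289) and Itga2b with -1.77 ± 0.61 (adjusted p = 0.0304); these differences between genes were not tested, except for Itga2b against Pf4, given further on.

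P2ry1 and Rab27b rose, both without overlap between month 0 and leukemia. P2ry1 was at 4.82, 3.20, 4.57, 5.26, 4.85 and 5.55 log2 CPM at month 0 and at 7.23, 6.01, 6.69, 5.90, 7.21 and 5.86 at leukemia, a change of 1.78 ± 0.34 (3.43-fold, adjusted p = 0.00207). Rab27b was at 7.31, 4.91, 6.91, 7.42, 7.14 and 8.00 and then at 8.36, 8.39, 9.22, 9.96, 8.65 and 9.10, a change of 2.0 ± 0.31 (3.99-fold, adjusted p = 0.000686). Each rose in all 6 mice. P2ry1, Rab27b and Gp1ba were also among the 6 members that rose to the last CM library of the training cohort (50% of that list, and 11.5% of the 26 members called in leukemia). Members that did not pass were Gp1bb, Gp5, Sparc, Rgs18 (-0.19 ± 0.30), Tbxas1 (0.24 ± 0.44) and P2rx1 (-1.53 ± 0.61, adjusted p = 0.0535).

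**Figure D4:**
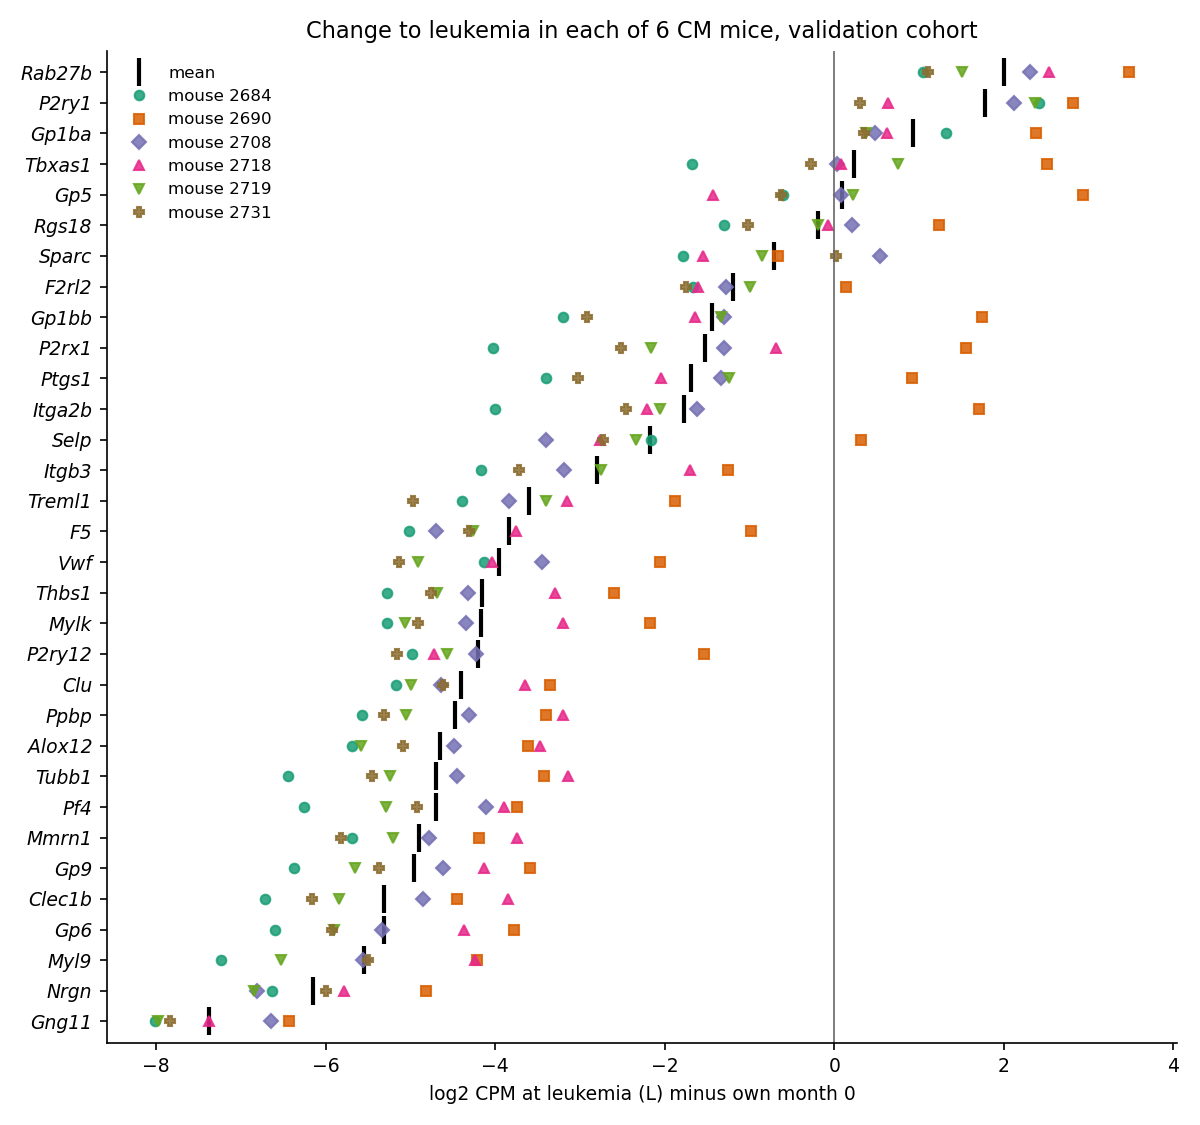
Change in log2 CPM from month 0 to leukemia for each member in each of 6 CM mice of the validation cohort; vertical bars are means. The means run from -7.38 (Gng11) to 2.0 (Rab27b), and all 6 mice lie above 0 for Gp1ba, P2ry1 and Rab27b.

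Genes of other cells moved with these changes. The list of 6 basophil and mast cell genes took 0.0147 to 0.0350% of the reads at month 0 and 0.645 to 1.44% at leukemia, and 5 of its 6 genes rose, Cpa3 by 9.44 ± 0.46 (adjusted p = 2.08e-06) and Fcer1a by 9.24 ± 0.22 (adjusted p = 7.4e-08). The 6 stem and progenitor genes took 0.00139 to 0.00259% and then 0.0389 to 0.295%, and Kit, the receptor of the blasts, rose by 8.84 ± 0.38 (adjusted p = 1.11e-06). No gene of either list was at 0 in all libraries of a group. The summed erythroid genes took 0.220 to 2.03% and then 0.0271 to 0.745%. The part of these cells in the rise of P2ry1, Rab27b and Gp1ba, and in the fall of the others, was not tested.

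Further genes of the lineage were counted in the same fit. Of the further 31 platelet genes, 17 fell and 5 rose at leukemia, with Trpc6, a cation channel, at -6.16 ± 0.38 (adjusted p = 5.98e-06) and Cd226, an adhesion molecule, at -5.35 ± 0.32 (adjusted p = 5.81e-06). Of the 14 regulators of megakaryocyte development, 10 rose and 2 fell. Gata2, a transcription factor of progenitors that is also on the mast cell list, rose by 5.46 ± 0.17 (adjusted p = 3.95e-07). The regulators together took 0.0814 to 0.125% of the reads at month 0 and 0.271 to 0.313% at leukemia, without overlap.

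Mouse 2731, whose month 0 library did not match its labelled sex, and mouse 2690 were each left out. The number of called members was 24 without 2731 and 28 without 2690, against 26 with both. The share of all genes called without either mouse is not given here. With both mice, 33% of all genes were called lower and 31.4% higher. Without 2731 the Pf4 change was -4.65, that of Rab27b 2.18 and that of P2ry1 2.07, while Itga2b (-1.64) and Ptgs1 (-1.42) no longer passed. Itga2b was at 10.26, 7.60, 10.04, 10.44, 10.33 and 10.86 log2 CPM at month 0 and at 6.25, 9.31, 8.42, 8.22, 8.27 and 8.40 at leukemia. Mouse 2690 rose in this gene while the other 5 mice fell, and without it the change was -2.47.

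The ratio of Itga2b to Pf4 compares a gene that progenitors also transcribe with a gene of platelet granules, within a library and so without regard to its scale. Itga2b minus Pf4 was 1.11 ± 0.22 log2 units at month 0 and 4.03 ± 1.23 at leukemia (SD, n = 6). It was higher at leukemia in 6 of 6 mice, by 2.92, and the ranges, 0.79 to 1.38 and 2.74 to 6.24, did not overlap. The exact two-sided permutation test over sign changes gave p = 0.03125, the smallest that 6 pairs allow, and 0.0625 after adjustment over the 4 tests of this ratio. At validation month 1 the ratio was 1.46 ± 0.09 in 10 CM mice and 1.27 ± 0.14 in 6 controls, a difference of 0.19 (exact permutation p = 0.00425, adjusted 0.0170), and 0.18 without mice 2700 and 2731 (exact permutation, adjusted p = 0.0466). At training month 1 the difference was 0.23 (exact permutation p = 0.0903, adjusted 0.120), and between the last training CM library and month 0 it was 0.15 (exact permutation p = 0.656). With Gp9 in place of Pf4 these differences were 3.18, 0.04, 0.03 and -0.11, in the same order.

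**Figure D5:**
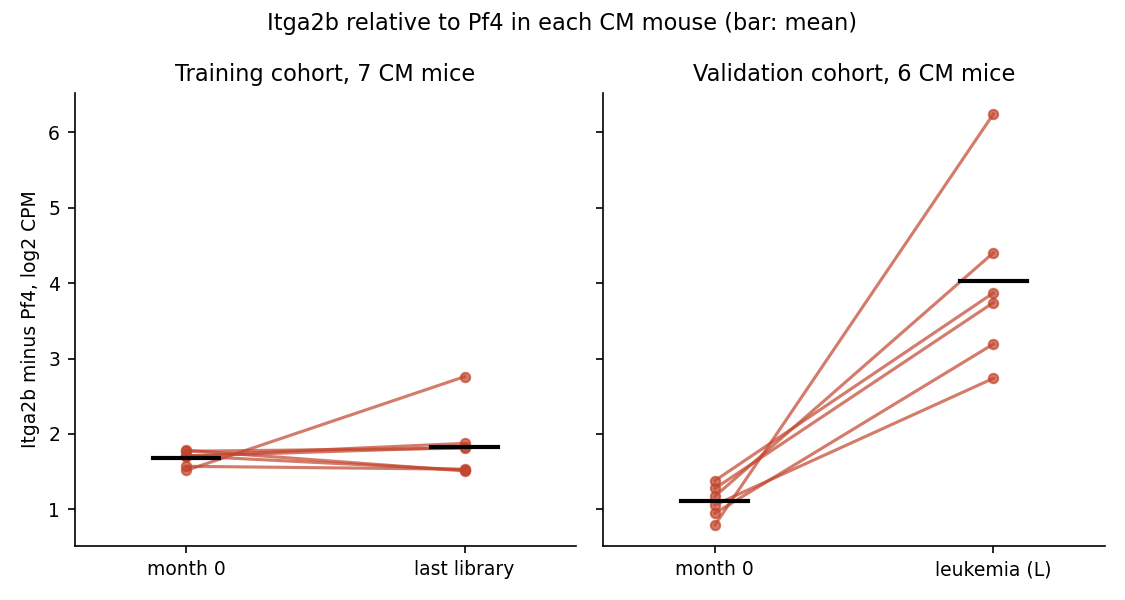
Itga2b minus Pf4 in log2 CPM for each CM mouse at month 0 and in the last training library (left) or at leukemia in the validation cohort (right); black bars are means. The leukemia means are 4.03 against 1.11 at month 0, and the training means are 1.83 against 1.68.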

How the data were processed

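Blood RNA of both cohorts was analysed from 1 deposited table of log2 CPM per cohort (CPM is reads per 1000000 of the library). Per the submitters' processing notes, the authors aligned reads to GRCm38 with STAR, counted them with featureCounts of the Subread package and made log2 CPM with edgeR. Their versions were not stated in these sources. The deposited values were turned back to whole reads for 100% of entries (tolerance 0.01 reads, prior 0.25 reads). They hold no composition factor, so that a rise of globin reads lowers the values of other genes. The tables had been filtered at 0.5 CPM (training) and 5 CPM (validation) in 2 samples, per the file names.

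Each comparison was fitted on all genes with limma 3.58.1 (R 4.3.3, intensity trend, two-sided, Benjamini-Hochberg over all genes), with a call at an adjusted p under 0.05. Arm comparisons had sex as a covariate; comparisons within a mouse had the mouse as a replicate block, since the same mouse gave both libraries. Fold changes are log2 ± SE and levels mean ± SD. Ratios were tested by exact permutation (scipy 1.17.1, Python 3.11.15). The fits were tested on simulated data. Alternatives were median-ratio scaling, voom on the reads, a prior of 1 read, a filter at mean log2 CPM 1, no covariate or block, the title code G1 to G7 added as a term, leaving out each mouse and, chosen after seeing the data, globin reads left out of the total and fits without mice 2700 and 2731.

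Members and gene lists were chosen with earlier results of these data known. Named genes are Pf4, Ppbp, Itga2b, Gp1bb, Gp9, Gp6, Vwf, Tubb1, Clu, Thbs1, Myl9 and P2ry12, the highest and lowest member of each comparison, and up to 3 called genes of each other list; other members named were chosen after their values were seen. The lists were further platelet genes, megakaryocyte regulators, erythroid, endothelial, stroma and smooth muscle, basophil and mast cell, stem and progenitor, and leukocyte check genes. Exon lengths for RPKM came from a GENCODE annotation of an older build, and coordinates and promoters from RefSeq on GRCm38.p6. The weekly libraries entered no test.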

Additional observations from a re-analysis of the deposited data

Results flagged for a closer look

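Of 247 groups of a named member or the member median, 51 had a highest or lowest library far from the others by Dixon's criterion at 95%, where chance gives about 1 in 20. They gathered in few libraries. The month 0 library of CM mouse 2690 was low, in log2 CPM, for the median of the members (5.37), Pf4 (6.81), Ppbp (7.97), Itga2b (7.60), Gp1bb (2.87), Gp9 (5.46), Gp6 (3.59), Vwf (6.77), Tubb1 (7.28), Clu (5.29), Thbs1 (8.53), Myl9 (6.24) and P2ry12 (5.48). The month 2 library of CM mouse 2731 was low for the median (4.10), Pf4 (4.22), Gp9 (2.86), Gp6 (0.63), Vwf (5.47), Tubb1 (4.77), Clu (3.93), Thbs1 (6.55), Myl9 (2.63) and P2ry12 (2.38).

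In the training cohort, the month 6 library of CM mouse 3341 was low for Gp1bb (3.75), Gp9 (4.19), Gp6 (1.64), Vwf (6.27), Tubb1 (5.59), Clu (4.92), Thbs1 (7.82), Myl9 (4.10) and P2ry12 (1.77). The month 10 library of Ctrl mouse 3335 was low for the median (7.92), Pf4 (9.04), Ppbp (10.68), Itga2b (10.21), Gp9 (8.13), Gp6 (6.57), Vwf (10.09), Clu (9.16), Myl9 (9.12) and P2ry12 (7.64). Ctrl mouse 3342 was high at month 1 for Itga2b (9.87), Gp1bb (6.80) and Vwf (10.26) and at month 2 for Vwf (9.45). Single values stood apart in Ctrl mouse 3340 at month 0 (Tubb1, 9.20), CM mouse 2709 at month 1 (Clu, 6.88), Ctrl mouse 2705 at month 1 (Gp1bb, 7.24), CM mouse 2684 at leukemia (Itga2b, 6.25) and CM mouse 2690 at leukemia (P2ry12, 3.94).

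The late change differed between the arms in 18 of 32 members, by the test of the difference itself. Weekly libraries, which entered no comparison, had a higher member share in CM mouse 3200 than in the single control library at week 10 (0.835 against 0.519%), week 14 (0.859 against 0.480%) and week 18 (1.39 against 0.548%). At week 20 the share was 0.318% in CM mouse 3130 and 0.858% in CM mouse 3131, against 0.107% in the control. The order turned at week 24, with 0.158 and 0.185% in these mice against 0.811%, and at week 28, with 0.145% in mouse 3131 against 1.20%.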

How the results depend on the processing

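Of 141 single members called in a comparison, 2471 values under alternatives gave 2141 with the same call, 330 no longer past the threshold and 0 of opposite sign. Counts of called members moved by over 1.5 times at training month 1 under median-ratio scaling (9, against 20) and with the title code G1 to G7 added (0), at training month 2 with that code added (0, against 20), at validation month 1 without mice 2700 and 2731 (12, against 20), and in the training difference of the month 1 changes by voom (1) and without the sex covariate (2), against 0. The code could not be fitted at training months 4 and 5. Leaving out each mouse in turn gave 4 to 24 calls at training month 1, 13 to 24 at month 2 and 6 to 25 at validation month 1. It gave 0 to 13 for validation controls from month 0 to 1, 0 to 4 and 0 to 2 for the training and validation differences of the month 1 changes, and 3 to 29 for the difference of the late changes. Mice that moved a count are named in the report. The pairing is by mouse. With no replicate block, 6 members were called for the last CM library, 31 for control month 10 and 28, against 26, for leukemia. The share of all genes called under the alternatives of this section is not given here. For the ratio of Itga2b to Pf4 with no replicate block, leukemia gave 2.92 (exact permutation, adjusted p = 0.00849) and the last library 0.15. With Gp9 in place of Pf4 the ratio difference was 0.041 at validation month 1, no longer past the threshold, and -0.11 in the last library, of opposite sign. Without single mice the ratio differences were 0.165 to 0.288 at training month 1, 0.162 to 0.227 at validation month 1 (adjusted p = 0.0506 without mouse 2683), -0.029 to 0.224 for the last library (negative without mouse 3341) and 2.42 to 3.17 at leukemia. The causes were not tested.

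Depth limits Sparc, with few reads. Validation month and run coincide, leukemia libraries are 1 run, and training libraries of an arm were spread unevenly over the codes G1 to G7, which the labels do not explain. The last CM libraries come from different months.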

Other observations

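In the weekly libraries, which have 1 or 2 mice per arm and week, Pf4 and Itga2b took separate courses in CM mouse 3131. Pf4 was at 8.63, 5.47 and 3.80 log2 CPM at weeks 20, 24 and 28, while Itga2b was at 9.39, 8.35 and 8.62. In CM mouse 3130, Pf4 was at 6.82, 5.05 and 7.76 at weeks 20, 24 and 25, and Itga2b at 8.16, 7.92 and 9.61. In control mouse 3127, Pf4 was at 5.33, 7.93 and 8.91 at weeks 20, 24 and 28 and Itga2b at 6.34, 9.44 and 9.84. CM mouse 3200 had Pf4 at 8.25, 8.40 and 9.72 at weeks 10, 14 and 18, and control mouse 3202 at 7.51, 7.26 and 8.01. No test was made.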
